A study of Mus musculus with 2 samples.

Results

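The genes described here are 48 genes that a cell uses to copy its DNA or to divide. Of these, 21 act at the G1/S boundary and in S phase, and 27 are grouped as mitotic, most of them acting from G2 to the end of mitosis. They were chosen by name. All gene spots of a 2-colour mouse expression array whose gene name equals one of the 48 were taken, which gave 62 probes of the 39429 on the array, each printed as 4 spots. Probes that were well above background in at least 1 genotype on both arrays represented 46 of the 48 genes, among 22070 genes tested on the array. The other 2, Ccne2 (cyclin E2, a partner of the kinase that starts S phase) and Aurkb (the aurora kinase of the chromosomal passenger complex), were not well above background in any of the 4 channels.

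The samples were ureters of NMRI mouse embryos, dissected at E15.5 and grown on transwell membranes for 6 days. The mutant, called Fgfr1/2cDKO, was Tbx18(cre/+) together with Fgfr1(fl/fl) and with Fgfr2(fl/fl), in which Cre is made from the Tbx18 locus and both fibroblast growth factor receptor genes carry 2 floxed copies. The control was Fgfr1(fl/?) and Fgfr2(fl/?): it also carries floxed receptor alleles, the second allele of each gene is left unspecified, and no Cre is listed for it. Tbx18 is expressed in the mesenchyme around the ureter, so the epithelium inside the tube keeps its receptors by design. Each of the 2 arrays compared 1 mutant with 1 control RNA, male on array 1 with the mutant in Cy5 and female on array 2 with the mutant in Cy3, so sex, dye orientation and replicate cannot be told apart. The labels do not say how many embryos gave each RNA. The p-values rest on these 2 arrays alone, with the spread between them pooled in part over all genes tested.

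Between 70.3% and 78.3% of gene spots were well above background in each channel, 3.17% and 3.65% of spots were outliers on arrays 1 and 2, and 0 gene spots were saturated. Of the targeted genes, Fgfr1 had a log2 ratio of mutant to control of -0.33 ± 0.15 (SD, n = 2 arrays, limma adjusted p = 0.134) and Fgfr2 was higher in the mutant at 0.56 ± 0.02 (limma adjusted p = 0.0309). The sources used here do not give which exons are floxed, and a probe outside the deleted part does not check the deletion. For the ureter's main tissues, 16 of 16 urothelial and 14 of 14 smooth muscle marker genes passed the background filter. That filter asks for signal in at least 1 genotype on both arrays.

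Cells license their replication origins in G1, when Cdt1 and Cdc6 load the MCM helicase onto DNA, and fire them in S phase, when Cdc45 and the GINS proteins join the helicase and polymerases copy both strands. E2F factors switch on many genes of this group. Later in the cycle a second wave of genes, which hold CCAAT boxes bound by NF-Y and a "cell cycle homology region" (CHR) bound by the DREAM and MuvB complexes, supplies the cyclins, kinases and motors of mitosis. In a tissue made of many cells, transcripts of both waves follow the share of cells in cycle, and in bulk RNA fewer cells of a type and less RNA per cell cannot be told apart. In the embryonic ureter, mesenchyme and urothelium grow by division before the mesenchyme matures into contractile smooth muscle.

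Letters of these motifs were counted in the members' promoters. RefSeq promoter windows (build GRCm38.p6, 300 bases each, from 250 before to 50 after the gene's start) were matched for 39 of the 48 genes by symbol, and the letters of 3 motifs were searched on both strands. A gene was counted once if any of its windows held the letters, so genes with several windows (32544 in all) had more chances to match. CCAAT was found for 82.1% of the 39 genes and for 41% of all 26742 genes with a window. The CHR letters TTTGAA or TTCGAA were found for 18 of 22 mitotic genes (81.8%) and 3 of 17 S phase genes (17.6%), against 21.5% of all genes. The E2F letters TTTCCCGC, TTTGGCGC, TTTCGCGC or TTTGCCGC were found for 7 of 17 S phase genes (41.2%) and 3 of 22 mitotic genes (13.6%), against 2.63% of all genes. Matches of the same motif can overlap each other. A match is a description of the letters, not a measured binding site.

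The 150 bases before the start are printed below, 5′ to 3′ on the gene's strand, for the S phase genes Cdt1, Cdc6 and Pola1 and the mitotic genes Plk1 and Espl1, whose ratios are described in the paragraphs on each phase, and for Mcm6, Cdk1 and Kif11, which were chosen after their matches were seen, as examples of a promoter with several E2F matches, one with all 3 motifs and one with a CCAAT box close to CHR letters. Capitals mark motif matches on either strand, so that ATTGG is CCAAT and TTCAAA is TTTGAA read from the other strand.
Cdt1: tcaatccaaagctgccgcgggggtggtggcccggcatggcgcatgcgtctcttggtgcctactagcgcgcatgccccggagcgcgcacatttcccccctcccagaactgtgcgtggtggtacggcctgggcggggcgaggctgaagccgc
Cdc6: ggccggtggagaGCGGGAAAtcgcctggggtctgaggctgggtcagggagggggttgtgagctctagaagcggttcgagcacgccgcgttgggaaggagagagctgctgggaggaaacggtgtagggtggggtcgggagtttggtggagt
Pola1: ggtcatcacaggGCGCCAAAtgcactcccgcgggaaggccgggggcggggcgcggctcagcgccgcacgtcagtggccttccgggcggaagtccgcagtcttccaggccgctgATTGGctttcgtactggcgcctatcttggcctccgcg
Mcm6: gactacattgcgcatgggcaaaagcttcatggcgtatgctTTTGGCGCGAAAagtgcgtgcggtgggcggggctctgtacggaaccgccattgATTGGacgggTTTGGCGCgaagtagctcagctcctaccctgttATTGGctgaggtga
Plk1: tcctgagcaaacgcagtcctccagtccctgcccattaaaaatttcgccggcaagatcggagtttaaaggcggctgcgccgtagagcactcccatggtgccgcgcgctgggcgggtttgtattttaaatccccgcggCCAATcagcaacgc
Espl1: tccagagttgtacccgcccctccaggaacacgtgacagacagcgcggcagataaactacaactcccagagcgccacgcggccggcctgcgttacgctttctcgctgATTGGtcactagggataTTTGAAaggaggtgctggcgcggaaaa
Cdk1: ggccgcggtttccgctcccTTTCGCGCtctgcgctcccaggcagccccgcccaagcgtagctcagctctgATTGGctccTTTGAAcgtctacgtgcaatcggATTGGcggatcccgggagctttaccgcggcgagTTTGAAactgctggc
Kif11: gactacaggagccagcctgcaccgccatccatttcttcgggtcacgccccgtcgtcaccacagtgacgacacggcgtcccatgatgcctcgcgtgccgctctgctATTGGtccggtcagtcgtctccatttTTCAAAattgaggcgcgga
Cdt1 lies at chr8:122567865-122568014, Cdc6 at chr11:98908001-98908150, Pola1 at chrX:93632156-93632305, Mcm6 at chr1:128359706-128359855, Plk1 at chr7:122159285-122159434, Espl1 at chr15:102296143-102296292, Cdk1 at chr10:69352913-69353062 and Kif11 at chr19:37376232-37376381, with Pola1, Mcm6 and Cdk1 on the minus strand. The Cdt1 stretch holds no match, and the E2F letters TTTGGCGC of this gene lie 33 to 40 bases after its start. Plk1 has its CHR letters TTTGAA 31 to 36 bases after its start and a CCAAT box 14 to 10 bases before it. Cdk1 carries all 3 motifs and Mcm6 has 3 E2F matches, of which the first pair overlaps. The 21 tested members with CHR letters had a median log2 ratio of -0.05 and the 18 without had -0.09.

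Differences in replication and mitosis transcripts between mutant and control ureters were small. Among the 46 genes tested Cdt1 rose, 1.40-fold, and 0 fell, at a limma adjusted p below 0.05. Over the whole array 3.79% of genes passed this threshold, 1.76% higher and 2.03% lower in the mutant. The median log2 ratio of the 46 genes was -0.07 (-0.04 on array 1 and -0.08 on array 2), beside -0.02 for all genes tested. Below 0 on both arrays were 22 of the 46 (47.8%, against 36% of all genes), and above 0 on both 12 (26.1%, against 30.5%). Opposite signs were found for 12 of the 46, beside 7401 of all 22070 genes tested.

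At an unadjusted limma p below 0.05 there were 7 of 46 genes (15.2%), where 22.5% of all genes tested lay. Of these, Cdt1, Cdc6, Plk1 and Espl1 had higher values in the mutant, and Pola1, Tpx2 and Ccna2 had lower ones. The genes pointing up and the genes pointing down came from both phases.

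**Figure D1:**
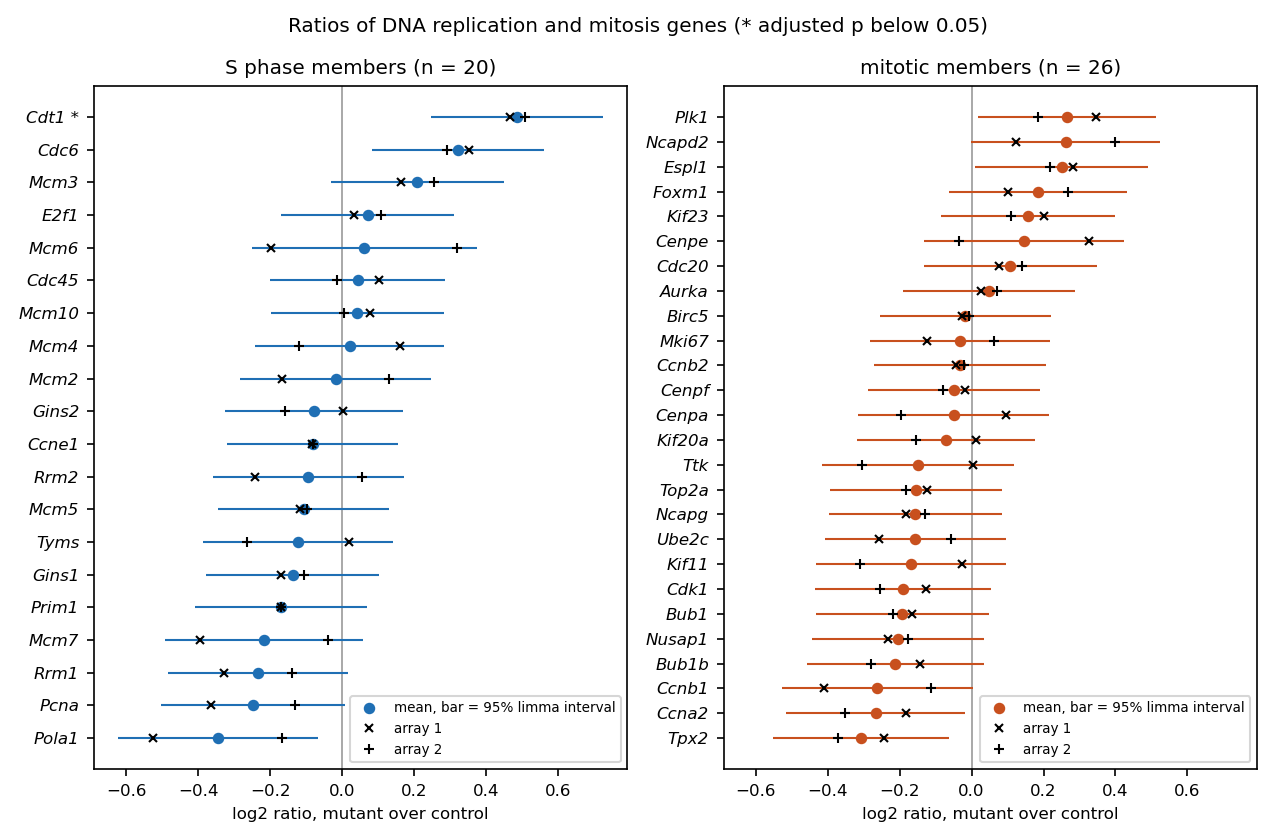
Log2 ratio of mutant to control (horizontal axis) of each of the 46 tested genes, with S phase and mitotic genes in separate panels: dots are means, crosses and plus signs are arrays 1 and 2, bars are 95% intervals from limma, and a star marks an adjusted p below 0.05. Ratios run from -0.35 for Pola1 to 0.49 for Cdt1, and the intervals of 7 genes leave out 0.

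With loess, all 46 of the 95% limma intervals lay within a 2-fold change in either direction, and 44 lay within 1.5-fold. The lowest lower bound was -0.62, for Pola1 (1.54-fold lower), and the highest upper bound was 0.73, for Cdt1 (1.65-fold higher). From ratio to bound the median distance was 0.24 on the log2 scale. Limma draws each gene's variance towards that of all genes, so these widths reflect the spread over all genes more than a gene's own 2 values. With median centring all 46 intervals again lay within 2-fold, but only 25 lay within 1.5-fold, the lowest bound was -0.88 for Pola1 (1.84-fold lower) and the highest was 0.55 for Cdt1 (1.47-fold higher). The ratio of the 2 arrays differed by a median SD of 0.09 for the members and of 0.11 for all genes, while 4 spots of 1 probe differed by a median SD of 0.07 on each array.

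Among the 20 S phase genes tested, 1 was higher and 0 were lower, with a median of -0.08 (-0.10 on array 1 and -0.06 on array 2). Of the 6 loading and firing factors 3 were above 0 on both arrays (50%, against 30.5% of all genes). The polymerase, primase and clamp genes, 3 of 3, were below 0 on both, as were 36% of all genes.

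Cdt1, the factor that brings the MCM helicase to origins and is destroyed once S phase begins, had log2 levels of 12.00 and 12.37 in the controls of arrays 1 and 2 and of 12.47 and 12.87 in the mutants (probe at chr8:125096893-125096952, mm9, plus strand). The mutant was higher on both arrays and the groups did not overlap. Its log2 ratios were 0.47 and 0.51, with a mean of 0.49 ± 0.03 (SD, n = 2; 95% interval 0.25 to 0.73; limma adjusted p = 0.0453). This call lay close to the threshold: over the alternatives with a test its limma adjusted p ran from 0.0209 to 0.443, and it was above the threshold with the scanner's processed signals (0.121), median centring (0.200, where its ratio was 0.27), the authors' value table (0.105), and separate channels with (0.116) or without (0.443) the array as a block.

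Cdc6, the ATPase that loads the helicase together with Cdt1, had levels of 8.80 and 9.14 in the controls and 9.15 and 9.44 in the mutants. Control and mutant values nearly touched, but each mutant was above its own array's control. The ratio was 0.32 ± 0.04 (n = 2, limma adjusted p = 0.125), and a second probe gave 0.12. Mcm10, Cdc45 and the GINS subunits, which turn the loaded helicase into a moving fork, gave 0.04 for Mcm10, 0.04 for Cdc45, -0.14 for Gins1 and -0.08 for Gins2, none of which passed the test.

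The 6 subunits of the MCM helicase itself had a median ratio of 0.00 (-0.14 on array 1 and 0.05 on array 2). Mcm3 had control levels of 13.12 and 13.26 and mutant levels of 13.28 and 13.51, a ratio of 0.21 ± 0.07 (limma adjusted p = 0.281; -0.02 with median centring), and a second, overlapping probe gave 0.20. Mcm7 had control levels of 14.33 and 14.07 and mutant levels of 13.93 and 14.03, a ratio of -0.22 ± 0.25 (limma adjusted p = 0.328), of which array 1 gave -0.39 and array 2 -0.04. Mcm5 had -0.11, below 0 on both arrays. Mcm2, Mcm4 and Mcm6 differed in sign between the arrays with loess, and with median centring Mcm4 did while Mcm2 and Mcm6 were below 0 on both. The subunits form one ring, and their ratios ran from -0.22 to 0.21, with 0 of 6 past the test.

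Pola1, the catalytic subunit of the polymerase that starts each new strand, had the lowest ratio of all 46 members. Its control levels were 11.60 and 11.72 and its mutant levels 11.08 and 11.55 (probe at chrX:90550189-90550248, mm9). The groups did not overlap, but array 1 gave -0.52 and array 2 -0.17, so that the mean of -0.35 ± 0.25 (n = 2) had a limma adjusted p of 0.148. Prim1, the primase subunit that works with it, had control levels of 12.53 and 12.75 and mutant levels of 12.37 and 12.58, overlapping groups with a ratio of -0.17 on each array (limma adjusted p = 0.374).

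Pcna, the sliding clamp and a common marker of cycling cells, had levels of 14.68 and 14.55 in the controls and 14.32 and 14.42 in the mutants. The mutants were the lower pair, by -0.36 on array 1 and -0.13 on array 2, a mean of -0.25 ± 0.16 (limma adjusted p = 0.238).

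Enzymes that make deoxynucleotides gave mean ratios below 0 in 3 of 3 genes, as did 11916 of all 22070 genes tested. Their median was -0.12, with 0 past the test. Rrm1, the large subunit of ribonucleotide reductase, had control levels of 13.16 and 13.02 and mutant levels of 12.83 and 12.88, a ratio of -0.23 ± 0.13 (limma adjusted p = 0.251). Its small subunit Rrm2 gave -0.24 on array 1 and 0.06 on array 2. Tyms, which makes thymidylate, gave 0.02 and -0.26.

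The G1/S regulators came last in this phase. E2f1, the transcription factor of the S phase wave, had a ratio of 0.07 (0.03 and 0.11). Ccne1, cyclin E1, had probes that disagreed: the brighter, used for the gene, had control levels of 12.32 and 12.27, mutant levels of 12.24 and 12.18 and a ratio of -0.08 on each array (SD 0.00, limma adjusted p = 0.688), while the other gave 0.09 and 0.31.

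**Figure D2:**
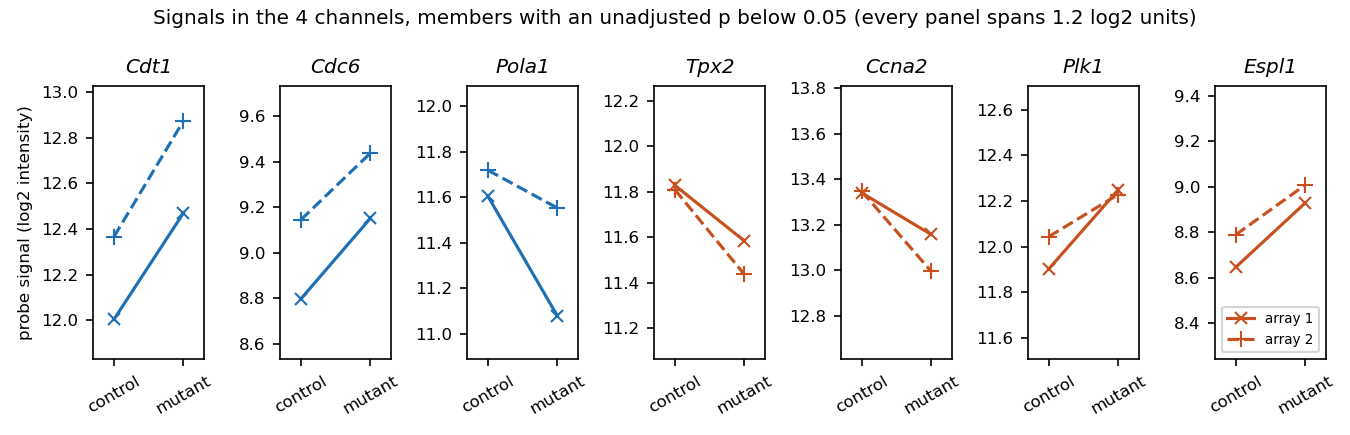
Log2 level (vertical axis) of the 7 members with an unadjusted p below 0.05, in control and mutant: solid lines join the samples of array 1 and dashed lines those of array 2, and each panel spans 1.2 log2 units. Cdt1 goes up from 12.00 to 12.47 on array 1 and from 12.37 to 12.87 on array 2, and Pola1 goes down on both arrays, by less on array 2.

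Among the 26 mitotic genes tested, 0 were called in either direction by limma, at a smallest adjusted p of 0.144. An unadjusted limma p below 0.05 was found for 4 (15.4%, against 22.5% of all genes). The median was -0.06 (-0.03 on array 1 and -0.10 on array 2). Below 0 on both arrays were 14 of 26 (53.8%, against 36% of all genes) and above 0 on both 7 (26.9%, against 30.5%).

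Of the 5 genes in the group of mitotic cyclins, Cdk1 and Foxm1, 4 were below 0 on both arrays (80%, against 36% of all genes). Their median was -0.19, and none passed the test. Ccna2, cyclin A2, had control levels of 13.34 and 13.35 and mutant levels of 13.16 and 12.99, groups that did not overlap, with a ratio of -0.27 ± 0.12 (n = 2, limma adjusted p = 0.195). Ccnb1, cyclin B1, had control levels of 12.62 and 12.48 and mutant levels of 12.20 and 12.37, a ratio of -0.26 ± 0.21 (limma adjusted p = 0.228), and its 3 probes ran from -0.39 to -0.21. Ccnb2, cyclin B2, had a ratio of -0.03 (-0.04 and -0.02), close to 0 on both arrays.

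Cdk1, the kinase that these cyclins activate, had control levels of 11.17 and 11.28 and mutant levels of 11.04 and 11.03 by its brightest probe, a ratio of -0.19 ± 0.09 (limma adjusted p = 0.330). A second probe gave 0.15 and -0.10, so the probes of this gene disagreed in sign. Foxm1, the transcription factor that works with MuvB at late cell cycle promoters, had a ratio of 0.18 (0.10 and 0.27) by its brightest probe and 0.00 by the other.

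Among the mitotic kinases and checkpoint genes the values pointed both ways. Plk1, the polo kinase needed for spindle assembly and centrosome maturation, had control levels of 11.90 and 12.04 and mutant levels of 12.25 and 12.23. The mutants were the higher pair, with a ratio of 0.27 ± 0.11 (n = 2, limma adjusted p = 0.195). Aurka, the centrosomal aurora kinase that activates Plk1, had a ratio of 0.05.

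Bub1b, which encodes the checkpoint protein BubR1, had control levels of 10.40 and 10.43 and mutant levels of 10.26 and 10.15, with a ratio of -0.21 ± 0.10 (limma adjusted p = 0.284). Bub1 had -0.17 and -0.22, and Ttk, the kinase that starts checkpoint signalling, had 0.00 and -0.30. Birc5, the survivin subunit of the passenger complex, had a ratio of -0.02, and the means of its 3 probes ran from -0.05 to -0.02. Its 2 dimmer probes changed sign between the arrays, with 0.14 and -0.24 for 1 and 0.14 and -0.22 for the other.

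Genes that trigger anaphase included Espl1, separase, which cuts the cohesin ring. Its control levels were 8.65 and 8.79 and its mutant levels 8.93 and 9.01, groups without overlap, and its ratio was 0.25 ± 0.04 (limma adjusted p = 0.207). Cdc20, an activator of the anaphase-promoting complex, had 0.08 and 0.14. Ube2c, the ubiquitin-conjugating enzyme of that complex, had -0.26 and -0.06.

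In the spindle group, Tpx2, which nucleates microtubules around chromosomes and activates Aurka, had the smallest p of the mitotic genes. Control levels of Tpx2 were 11.83 and 11.81 and mutant levels 11.58 and 11.44, a ratio of -0.31 ± 0.09 (limma adjusted p = 0.144), and a second probe gave -0.16. Nusap1, a spindle microtubule binding protein, had control levels of 11.72 and 11.63 and mutant levels of 11.48 and 11.45, a ratio of -0.20 ± 0.04 (limma adjusted p = 0.289). For both genes the mutant was the lower sample on each array.

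The kinesin Kif11, which pushes the spindle poles apart, gave -0.03 and -0.31. Kif20a, a kinesin of cytokinesis, gave 0.01 and -0.16. Kif23, the kinesin of the central spindle, gave 0.20 and 0.11, and a dimmer probe for it, designed on a cDNA clone at chr9:61775096-61775155 (mm9), gave 0.61 and 0.30.

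At the centromere, Cenpa, the histone that marks it, had 0.10 and -0.20. Cenpe, a kinetochore motor, had 0.33 and -0.03, and Cenpf, a kinetochore protein, had -0.02 and -0.08. Cenpa and Cenpe changed sign between the arrays.

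Of the genes for chromosome structure, Ncapd2, a condensin subunit, had control levels of 12.53 and 12.45 and mutant levels of 12.65 and 12.85, a ratio of 0.26 ± 0.19 (limma adjusted p = 0.224). Its partner Ncapg had -0.18 and -0.13, and Top2a, which untangles sister chromatids, had -0.12 and -0.18. These condensin subunits had values on opposite sides of 0.

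Mki67, which coats mitotic chromosomes and is the usual stain for cycling cells, had control levels of 14.27 and 14.13 and mutant levels of 14.15 and 14.19. The groups overlapped, and the ratio was -0.03 ± 0.13 (95% interval -0.28 to 0.22, limma adjusted p = 0.895). A second Mki67 probe gave 0.06 and -0.05, so its probes disagreed in sign around 0. The 11 members with more than 1 tested probe included 8 whose probes had 1 sign and 3 (Ccne1, Cdk1 and Mki67) whose probes had both.

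**Figure D3:**
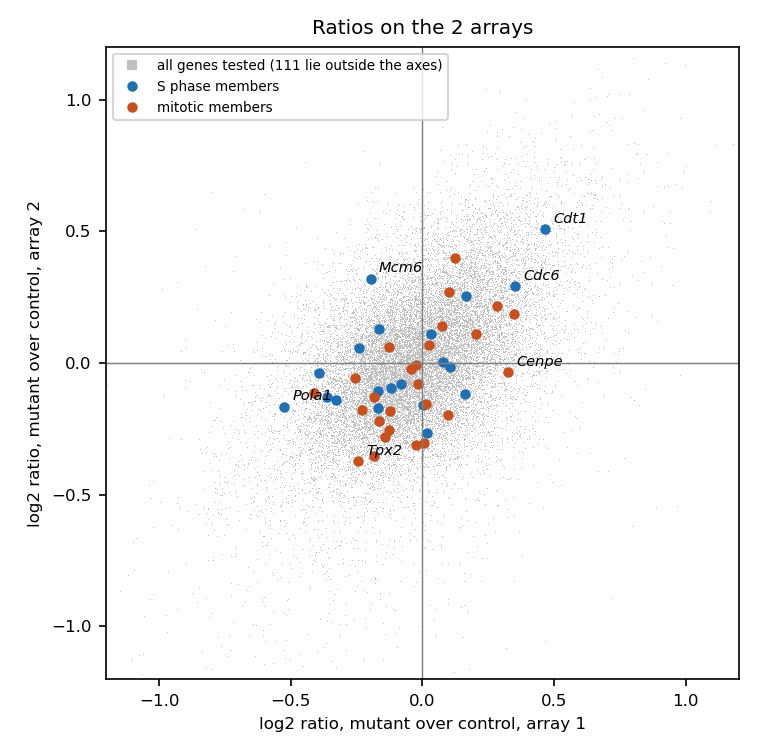
Log2 ratio of mutant to control on array 1 (horizontal axis) against array 2 (vertical axis), with grey points for all genes tested and coloured points for the members. The members lie close to the origin, Cdt1 is farthest to the upper right at 0.47 and 0.51, and 111 genes lie outside the axes, which end at 1.2 on either side.

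The member probes without signal were poor in G and C. The 3 member probes that were not well above background, 1 each for Ccne2, Aurkb and Cdk1, had 15% to 20% G and C, while the 59 tested ones had 18.3% to 53.3% with a median of 41.7%, the same median as all 39429 probes. Their first 30 bases, with G and C in capitals, are shown because they are the only view the array gives of Ccne2 and Aurkb.
Ccne2: ttataaaCtattGttaaGatatGaaGtttt
Aurkb: ttCaGaaaaattatGaaGaaCaaCatttta
Cdk1: aaCttaattaaCatGtaaatattattCCat
These stretches hold 5, 6 and 5 G or C. The dim Cdk1 probe (chr10:68801053-68801112, mm9, minus strand) shares 41 bases with the Cdk1 probe used for the gene, at chr10:68801072-68801131, which has the same 18.3% of G and C and was well above background in all 4 channels. Log2 levels of the dim Cdk1 probe were 6.24 and 6.28 in the controls and 6.23 and 6.27 in the mutants. Ccne2 was at 6.00 and 6.01 in the controls and 5.99 and 6.06 in the mutants, and Aurkb at 6.10 and 6.41 and at 6.21 and 6.25, all not well above background. No ratio is therefore given for Ccne2 or Aurkb.

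Cell cycle genes outside the 48 were taken from lists written for this work. Of 41 other replication genes tested 1 was higher and 0 were lower, with a median of -0.07. Below 0 on both arrays were 19 (46.3%, against 36% of all genes). The 1 that rose was Rpa1, the large subunit of the protein that covers single-stranded DNA. Its log2 levels were 14.43 and 14.60 in the controls and 15.11 and 15.23 in the mutants, a 1.57-fold difference at a ratio of 0.65 ± 0.04 (n = 2, limma adjusted p = 0.0228), and a second probe gave 0.55. The other subunits of the same complex did not pass the test, with -0.13 for Rpa2 and -0.21 for Rpa3. With processed signals, median centring, the authors' value table and separate channels without a block Rpa1 missed the threshold, at limma adjusted p of 0.0903, 0.245, 0.0652 and 0.250, and over all alternatives the adjusted p ran from 0.0115 to 0.250. Dbf4, the partner of the kinase that fires origins, had -0.37 (limma adjusted p = 0.0879), and Orc5, a subunit of the origin recognition complex, had -0.37 (limma adjusted p = 0.0890).

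Of 61 other mitosis genes tested 0 were called by limma, with a median of -0.08. At an unadjusted limma p below 0.05 there were 8 (13.1%, against 22.5% of all genes). On both arrays 32 (52.5%, against 36%) were below 0 and 10 (16.4%, against 30.5%) above. Incenp, the scaffold of the passenger complex, had 0.40 (limma adjusted p = 0.0855), the centromere protein Cenpn had -0.37 (limma adjusted p = 0.0873) and Plk4, the kinase that duplicates centrioles, had -0.37 (limma adjusted p = 0.0876).

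Genes that decide whether a cell enters or leaves the cycle were described by the same counts, beside 22.5% of all genes at an unadjusted limma p below 0.05. In the cyclin D, RB and E2F axis 0 of 23 genes were called by limma (6 at an unadjusted p below 0.05, 26.1%), with a median of 0.03. Ccnd3 and Ccnd2, D cyclins that carry growth factor signals into the cycle, had 0.31 (limma adjusted p = 0.140) and 0.30 (0.149), and E2f5, a repressor E2F, had -0.30 (0.145). Among 8 genes for inhibitors of cyclin-dependent kinases, a name that also covers the phosphatase Cdkn3, 0 were called by limma (1 at an unadjusted p below 0.05, 12.5%), with a median of 0.04. Cdkn3 had -0.29 (limma adjusted p = 0.166), Cdkn1c 0.15 (0.429) and Cdkn2a 0.15 on array 1 and -0.59 on array 2 (0.461). The p53 list holds Trp53, the gene for p53, and genes listed here as its targets. Of 16 tested, 0 were called by limma (5 at an unadjusted p below 0.05, 31.2%), with a median of 0.10. Zmat3 had 0.38 (limma adjusted p = 0.114), Gadd45b -0.36 (0.145) and Aen 0.28 (0.166).

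**Figure D4:**
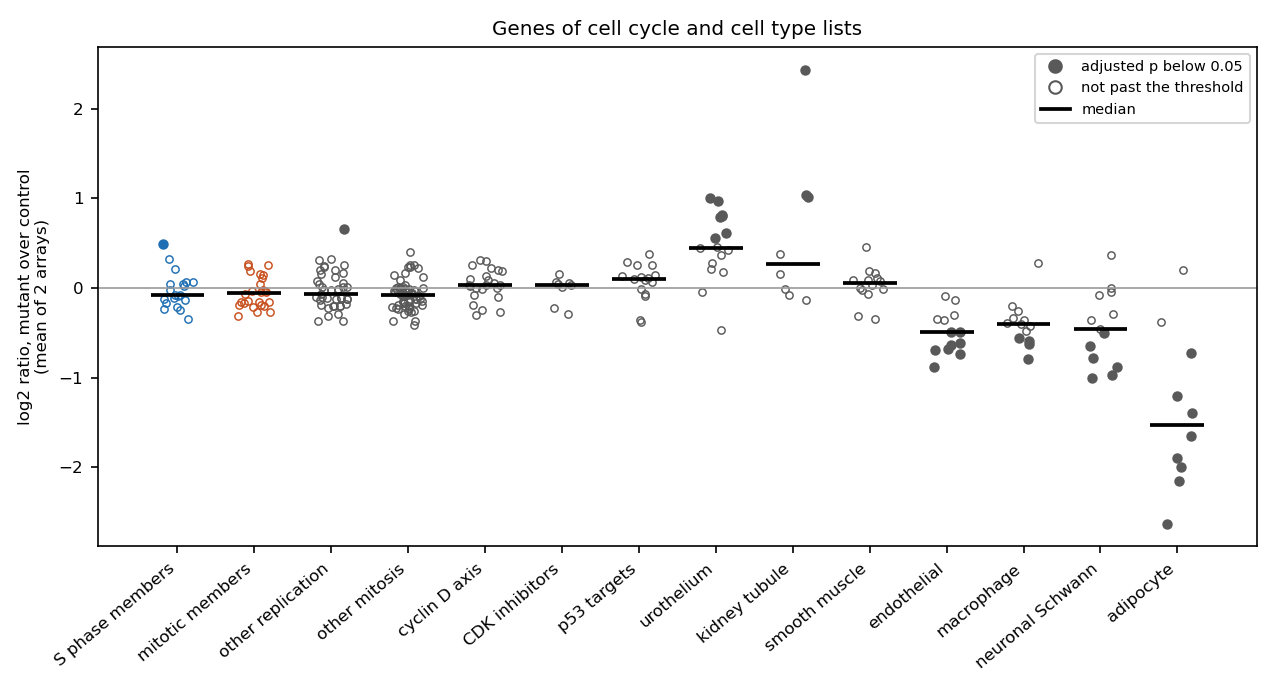
Log2 ratio of mutant to control (vertical axis, mean of 2 arrays) of the genes of each list, with a bar at the list's median: filled points passed a limma adjusted p of 0.05 and open points did not. The replication, mitosis, cyclin D, inhibitor and p53 lists have medians from -0.08 to 0.10, while the adipocyte list has -1.52 and the urothelium list 0.45.

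Marker lists of other cell types that the cultures could hold contained called genes, beside 2.03% of all genes called lower and 1.76% called higher. Of 10 adipocyte genes tested 8 were lower in the mutant, with a median of -1.52, and their summed linear level on arrays 1 and 2 was 152892 and 140951 in the controls and 102199 and 60197.5 in the mutants. Endothelial genes had 8 of 13 lower and a median of -0.49, with sums of 15659.4 and 15530 in the controls and 10503.8 and 12423.7 in the mutants. Macrophage genes had 4 of 13 lower and a median of -0.40 (sums of 116609 and 76285.4 in the mutants against 142316 and 110008 in the controls).

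Neuronal and Schwann cell genes had 6 of 13 lower and a median of -0.46, although their sum was higher in the mutants (63166.8 and 69191 against 51043.3 and 63706.1). Urothelial genes had 7 of 16 higher and a median of 0.45 (547966 and 668356 against 412364 and 427567), and kidney tubule genes 3 of 8 higher and a median of 0.27. Smooth muscle genes had 0 of 14 called and a median of 0.05, with 2 at an unadjusted limma p below 0.05 (14.3%, against 22.5% of all genes). The sum over the 46 members was 294247 and 290285 in the controls and 274757 and 291565 in the mutants, a log2 ratio of -0.10 on array 1 and 0.01 on array 2. The part of these cell types in the members' ratios was not tested.

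The size of the members' negative median depended on how each array was centred, and so did the median of equally bright genes. The probes of 36 of the 46 genes were among the brighter 50% of those tested and 18 among the brightest 25%. With loess, which centres the ratios at each brightness, the median of all genes among the brightest 25% was 0.01 and that of the 18 members there -0.05. From dim to bright, the members' medians with loess were -0.10 (4 genes), 0.05 (6), -0.11 (18) and -0.05 (18), beside -0.04, -0.03, 0.00 and 0.01 for all genes. Median centring, which shifts each array by 1 value, put the all-gene median at -0.14 instead of -0.02 and that of the brightest 25% at -0.25, and gave -0.29 for the 18 members there. In the next brightest 25% the 18 members had -0.30 with median centring and all genes -0.20. In both of these bright groups the members' median was below that of all genes with either method. In the second dimmest group it was above with either method (-0.11 against -0.17 with median centring). In the dimmest group, which held 4 members, it was below with either method (-0.07 against 0.02 with median centring).

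With median centring the median of all 46 members was -0.27, that of the S phase genes -0.26 and that of the mitotic genes -0.28. Below 0 on both arrays were 34 of 46 (73.9%), beside 53.2% of all genes. An unadjusted limma p below 0.05 with lower values in the mutant was found for 19 of 46, beside 4974 lower and 610 higher of all 22070 genes (2511 lower and 2444 higher with loess). These sets differ in brightness: most members are bright, and median centring put bright genes lower than dim ones. Shares among genes as bright as the members were not computed, so these counts do not set the members apart. No gene on the array was called by limma with median centring, at a smallest adjusted p of 0.121. Above 0 with median centring were 6 members, Cdc6, Cdt1, Espl1, Foxm1, Ncapd2 and Plk1. The sign of 10 others changed from above 0 with loess to below 0: Mcm3, Mcm4, Mcm6, Mcm10, Cdc45, E2f1, Kif23, Cenpe, Cdc20 and Aurka.

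**Figure D5:**
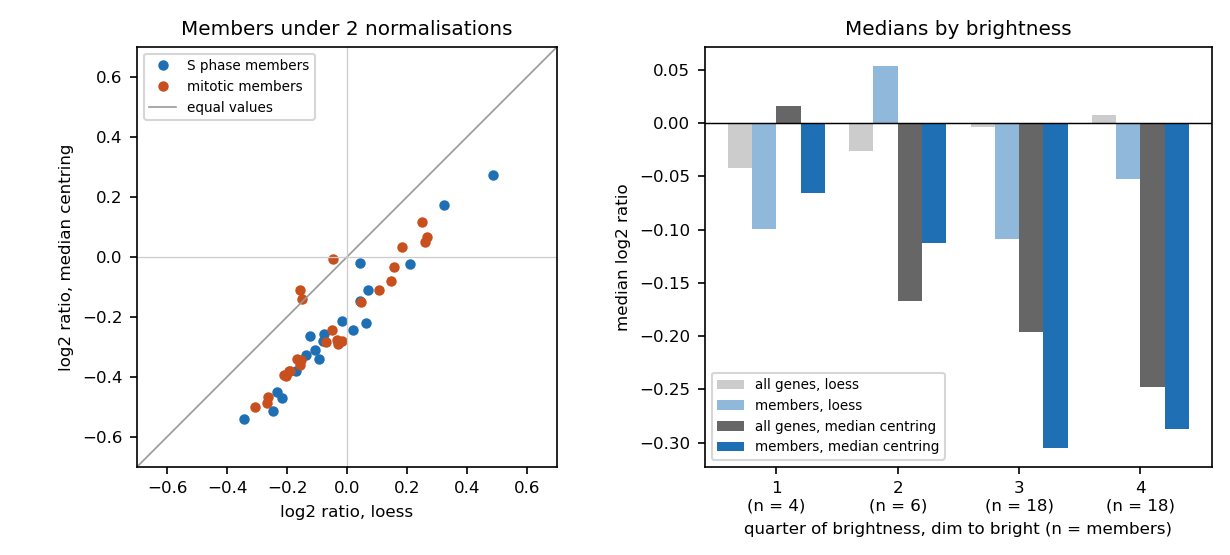
The left panel plots each member's log2 ratio with loess (horizontal axis) against that with median centring (vertical axis), and the right panel plots the median log2 ratio as bars in 4 groups of rising brightness, for all genes and for the members. With loess the 4 medians of all genes lie between -0.04 and 0.01, whereas with median centring they run from 0.02 in the dimmest to -0.25 in the brightest group, and the members' medians run from -0.07 to -0.30.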

How the data were processed

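Cy3- and Cy5-labelled cRNA from mutant and control ureters was hybridised on 2 two-colour Agilent arrays with swapped dyes. Spot intensities were deposited as Agilent Feature Extraction 10.7.3.1 wrote them, per the submitters' processing notes and the file headers, as mean and background intensity, as processed intensity (background-subtracted and dye-normalised by the software) and as a log10 ratio of red over green, per the file headers. The log10 ratio served only to find the direction of the authors' deposited value table, whose values, as deposited by the authors, are a score: they look like signed fold changes, and their scale, centring and direction are not stated. For the test these values were read as signed fold changes and put on the log2 scale. Of 39429 probes, 8097 on array 1 and 9100 on array 2 had a value of exactly 1, which was read as no change. Each column has a median of 1, and over probes it correlated with red over green at 0.84 on array 1 and -0.85 on array 2, so both columns run as mutant over control.

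Here, intensities were corrected with normexp (offset 50), normalised within arrays by loess (weight 0 for control spots, outliers dropped), turned to mutant over control and averaged over the 4 spots of a probe. Levels of single channels are log2 intensities after Aquantile scaling between arrays. A probe was tested if 1 genotype or both had, on each array, a share over 0.5 of its spots well above background (28915 of 39429 probes), and the brightest tested probe stood for its gene, which gave 22070 genes. Filler probes (19327 spots) and control spots (4517) were left out. Names came through RefSeq accessions or the list of members (28330 probes) or through symbols (3398), and 7701 probes kept the name in the file. Probe coordinates are those of the array annotation (mm9).

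The ratio was tested against 0 with limma 3.58.1 in R 4.3.3 (lmFit and eBayes, two-sided, 1 residual and 7.447 prior degrees of freedom), with Benjamini-Hochberg adjustment over all genes and a threshold of 0.05. Arrays give no counting interval, and the number of 2 arrays limits precision. On simulated ratios of 22070 genes, 200 of them changed, the test called 30.7% of changes of 0.5, 99.5% of changes of 1 and 100% of changes of 2 on the log2 scale, with a median of 9.26% false calls. The members and all gene lists were chosen with earlier results of these data known. Full values are printed for the 8 members of each phase with the smallest p, for called members and for those with probes of both signs, and in each other cell cycle list for called genes and the 3 with the smallest p. Rpa2, Rpa3 and the base composition of the probes without signal were singled out after their values were seen. The alternatives were other background corrections, centrings, filters, probe rules, variance models and a fit of separate channels with or without the array as a block.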

Additional observations from a re-analysis of the deposited data

Results flagged for a closer look

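Mcm2, Mcm4 and Mcm6, which encode 3 of the 6 subunits of the replicative helicase, had ratios of opposite sign on the male and the female array. Opposite signs were common: 12 of the 46 members and 7401 of all 22070 genes tested had them. Mcm6 had a log2 ratio of -0.20 on array 1 and 0.32 on array 2, a difference of 0.52. Mcm2 had -0.17 and 0.13, a difference of 0.30, and Mcm4 had 0.16 and -0.12, a difference of -0.28. With median centring Mcm6 had -0.26 and -0.19 and Mcm2 had -0.34 and -0.09, below 0 on both arrays, while Mcm4 had 0.07 and -0.56. With 1 array for each sex these differences were not tested, and sex, dye orientation and replicate cannot be told apart.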

How the results depend on the processing

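Among all genes tested 836 were called by limma, against 10 with the scanner's processed signals (4621 at an unadjusted p below 0.05), 1281 with a normexp offset of 10, 0 with median centring (5584 at an unadjusted p below 0.05), 170 with the authors' value table (4691 at an unadjusted p below 0.05), 1415 with an intensity trend in the variance and 1907 at a threshold of 0.1. Separate channels gave 214 with the array as a replicate block, which pairs the control and mutant on it (intraspot correlation 0.39; 4614 at an unadjusted p below 0.05), and 3 with no replicate block (2392 at an unadjusted p below 0.05). Of the 46 members 1 was called, and 0 with processed signals (5 at an unadjusted p below 0.05, or 10.9% beside 20.9% of all genes), median centring (19, 41.3% beside 25.3%), the authors' value table (4, 8.7% beside 21.3%), and separate channels with (10, 21.7% beside 20.9%) and without (2, 4.35% beside 10.8%) the replicate block. The S phase median moved from -0.08 to -0.26 with median centring and to -0.048 with the mean over a gene's probes, and the mitotic median from -0.06 to -0.28 with median centring. Leaving out 1 array gave -0.10 to -0.06 for S phase and -0.10 to -0.03 for mitotic genes, with no test on the array that remained. With median centring the share of all genes includes dim genes, whose ratios that method put higher than those of bright genes, while most members are bright. The cause of these differences was not tested. Dim probes limit Ccne2 and Aurkb to signals not well above background.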

Other observations

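Among S phase genes with a promoter window, the 7 with E2F letters had a median log2 ratio of 0.06 and the 10 without had -0.09. Among mitotic genes the 3 with E2F letters had -0.16 and the 19 without -0.05, the other way round. For CCAAT, the 12 S phase genes with a match had -0.10 and the 5 without 0.07, and the 20 mitotic genes with a match had -0.05 and the 2 without -0.11. These medians are descriptions over few genes, and no difference was tested. The ratios of arrays 1 and 2 had a Pearson correlation of 0.54 across the 46 members and 0.52 across all 22070 genes tested, a description across genes, which are not independent replicates and share the same RNA on each array.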
